A study of Rattus norvegicus with 9 samples.

Results

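Polyamine metabolism is described here through 8 genes in the gastrocnemius of rats, a muscle of the calf that the sciatic nerve drives. The genes were taken by name, matched through the NCBI gene identifiers of the deposited tables, and all 8 were found among 13752 gene identifiers listed in any library. There were 9 libraries in 3 groups of 3, all from male rats labelled as 8 weeks old. DN-SM rats had a sciatic nerve injury and daily electrical stimulation of the left calf through surface electrodes for 4 weeks from the day of surgery, at 25 V, 1 mA and 2 Hz with a pulse width of 300 ms. DN rats had the same injury without stimulation, and SHAM rats a sham operation. All groups were anaesthetised and fitted with electrodes, and current was given to DN-SM alone. The labels do not give the kind of nerve injury, the day on which DN and SHAM muscle was taken, or whether each library came from a separate rat, so p-values measure the spread between these libraries.

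Putrescine, spermidine and spermine are small positively charged molecules that bind nucleic acids and are needed for growth and for protein synthesis. Ornithine decarboxylase (Odc1) makes putrescine from ornithine, S-adenosylmethionine decarboxylase (Amd1) makes the donor of aminopropyl groups, and spermidine synthase (Srm) and spermine synthase (Sms) add those groups in turn. Sat1 acetylates spermidine and spermine for breakdown or export, and spermine oxidase (Smox) turns spermine back into spermidine. Antizyme (Oaz1), whose translation needs a polyamine-driven ribosomal frameshift, binds Odc1 protein and sends it to the proteasome, while the antizyme inhibitor Azin1 resembles Odc1, has no decarboxylase activity and binds antizyme in its place. In mouse muscle Smox has been described as a gene that is repressed in several forms of atrophy and helps to maintain fibre size.

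None of the 8 genes passed the test in any comparison. Comparing DN-SM with DN, 0 of 8 passed, beside 0.00987% of the 10129 genes tested. In DN-SM against SHAM 0 of 8 passed, beside 0.839% of all genes, and in DN against SHAM 0 of 8 passed, beside 4.26% of all genes. The test was edgeR's quasi-likelihood test across all genes, with Benjamini-Hochberg adjustment and a threshold of 0.05. At an unadjusted p under 0.05 there were 0 members in DN-SM against DN, 2 in DN-SM against SHAM (Odc1 and Srm) and 1 in DN against SHAM (Amd1), where 17.6%, 12.8% and 22.3% of all genes lay. DESeq2 and the other fits tried also called 0 members. The intervals of the differences, given below for each gene, state which sizes of change the data leave room for. In bulk muscle, fewer cells of a type and less RNA per cell cannot be told apart.

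The libraries held between 7926445 and 8893843 expected counts. Of 8 muscle markers 7 were listed, with a summed level of at least 118144 FPKM (fragments scaled to transcript length and library size) in every library. SHAM libraries differed more among themselves than those of the other groups: the chi-square per degree of freedom between replicate pairs was 7.57 to 21.5 in DN-SM, 11.8 to 26.1 in DN and 24.1 to 70.0 in SHAM. The summed slow-fibre markers (7 of 7 listed) ranged from 7433 to 17133 FPKM in DN-SM, from 15455 to 21181 in DN and from 4177 to 15097 in SHAM. The summed fast-fibre markers (9 of 10 listed) ranged from 65782 to 78606 FPKM in DN-SM, from 52369 to 61818 in DN and from 56742 to 86812 in SHAM. Macrophage markers (10 of 10 listed) summed to 68.4 to 97.4 FPKM in DN-SM, 72.1 to 115 in DN and 61.8 to 111 in SHAM, and none of the 10 passed the test in any comparison. None of these macrophage markers or fibre markers was at 0 in a library. Schwann cell markers (7 of 7 listed) summed to 77.9 to 172 FPKM in DN-SM, 132 to 308 in DN and 60.2 to 69.0 in SHAM, and 2 of them, Mbp and Ngfr, were higher in DN than in SHAM. Endothelial markers (7 of 7 listed) summed to 112 to 122 FPKM in DN-SM, 122 to 159 in DN and 86.4 to 105 in SHAM. Pecam1 and Cdh5 were higher in DN, and Cdh5 higher in DN-SM, than in SHAM. The median log2 fold change of the 7 endothelial markers was 0.42 in DN against SHAM but -0.04 in DN-SM against SHAM, where the sum was higher. Adipocyte markers (5 of 5 listed, Lep at 0 in DN-SM replicate 1 and SHAM replicate 1) summed to at least 93.4 FPKM in each DN-SM library and to at least 95.9 in each DN library, against 72.5 to 83.9 in SHAM, with most of each sum from Fabp4, which endothelial cells also express. The cell source of these adipocyte marker sums was not tested. None of the 4 tested adipocyte markers passed, and their median log2 fold change in DN-SM against SHAM was -0.49, opposite to the sum. Fibroblast markers (8 of 8 listed) summed to 334 to 491 FPKM in DN-SM, 504 to 712 in DN and 339.8 to 850.2 in SHAM, with DN-SM below DN in every library and none of the 8 past the test. Satellite cell markers (4 of 4 listed) summed to 9.87 to 11.3 FPKM in DN-SM, 9.85 to 14.7 in DN and 9.69 to 12.2 in SHAM. The part of these cell types in the values of the 8 genes was not tested.

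All 72 expected counts of the 8 genes were whole numbers, against 88.4% of all listed gene counts, so no split of reads with other genes is visible for them. Odc1 and Azin1 were each counted over 2 transcripts and Oaz1 over 3, and the other genes over 1.

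Oaz1 was by far the most abundant member, with a mean over the 9 libraries of 569 FPKM, above the mean level of 98.8% of the genes tested. Odc1 (36.2 FPKM) and Srm (33.9 FPKM) followed, then Amd1 (11.5), Sms (8.76), Azin1 (7.27), Sat1 (7.18) and Smox (4.00). Within SHAM the order ran Oaz1, Srm, Odc1, Amd1, Sms, Sat1, Azin1 and Smox, and the ranges of Sms, Sat1, Azin1 and Smox overlapped from each neighbour to the next. In DN-SM and DN the mean of Odc1 lay above that of Srm, but the ranges of the 2 genes overlapped, and those of Sms, Azin1 and Sat1 overlapped as well, as did those of Amd1 and Sms in DN.

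**Figure D1:**
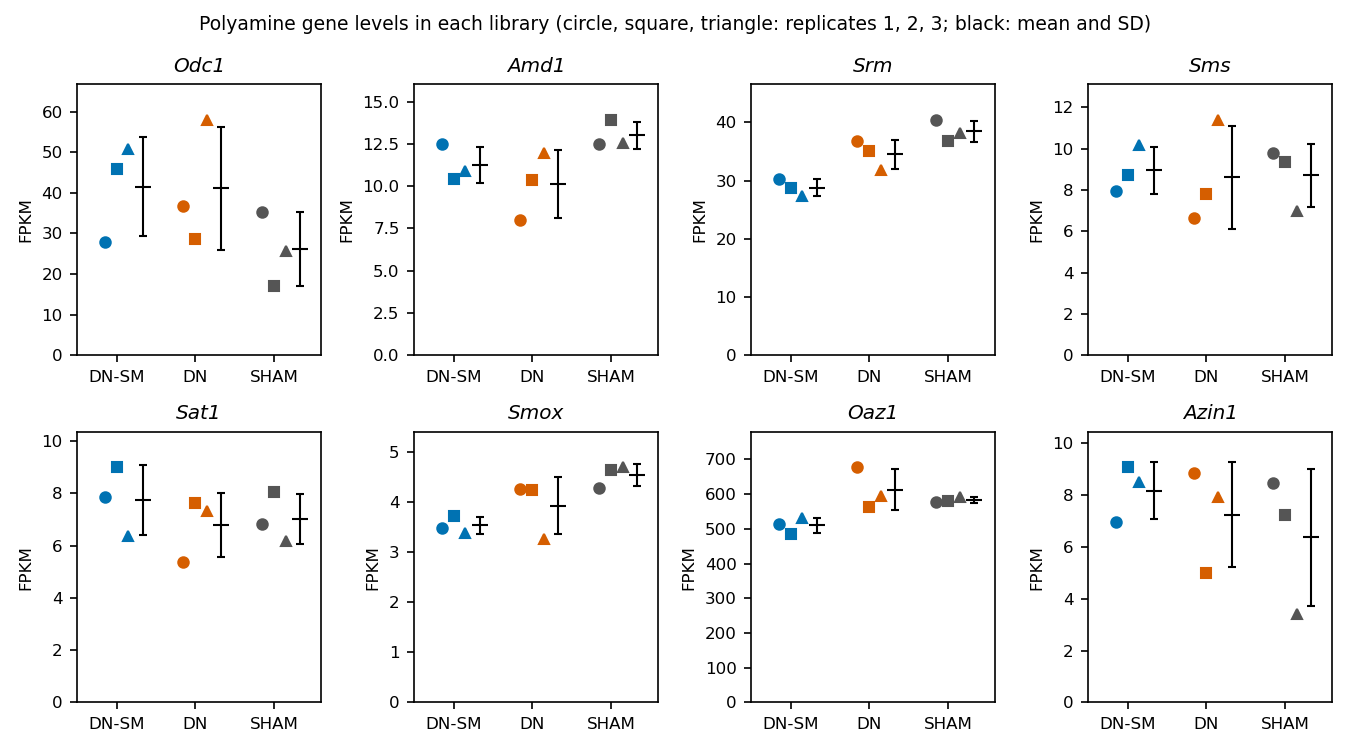
Level of each gene in FPKM (vertical axis, from 0) in the 9 libraries, by group on the horizontal axis; circles, squares and triangles are replicates 1, 2 and 3, and the black bar is the mean with its SD. Srm had 27.3 to 30.3 FPKM in DN-SM, 31.8 to 36.8 in DN and 36.8 to 40.4 in SHAM, while Odc1 and Azin1 spread widely within groups.

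The 250 bases before the transcription start are shown for the 3 genes with an unadjusted p under 0.05 in a comparison, a choice made after their values were seen. They come from RefSeq on the GRCr8 build, written 5′ to 3′ on the strand of the gene, at chr6:46058415-46058664 on the plus strand for Odc1, chr20:45265983-45266232 on the minus strand for Amd1 and chr5:164308752-164309001 on the plus strand for Srm. Capitals mark matches to the E-box CACGTG, to the cyclic AMP response element TGACGTCA or to TATAAA, the motif that positions transcription at many starts, each searched on both strands.
Odc1: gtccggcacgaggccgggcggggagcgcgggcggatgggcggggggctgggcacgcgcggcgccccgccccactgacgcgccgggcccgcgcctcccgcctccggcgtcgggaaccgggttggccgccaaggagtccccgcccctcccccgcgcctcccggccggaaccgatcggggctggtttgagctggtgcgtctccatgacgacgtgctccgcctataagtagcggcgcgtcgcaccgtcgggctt
Amd1: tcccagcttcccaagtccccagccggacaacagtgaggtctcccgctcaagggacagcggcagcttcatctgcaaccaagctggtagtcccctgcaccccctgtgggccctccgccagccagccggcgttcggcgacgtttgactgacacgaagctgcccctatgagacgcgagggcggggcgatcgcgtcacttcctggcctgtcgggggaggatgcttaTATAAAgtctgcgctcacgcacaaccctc
Srm: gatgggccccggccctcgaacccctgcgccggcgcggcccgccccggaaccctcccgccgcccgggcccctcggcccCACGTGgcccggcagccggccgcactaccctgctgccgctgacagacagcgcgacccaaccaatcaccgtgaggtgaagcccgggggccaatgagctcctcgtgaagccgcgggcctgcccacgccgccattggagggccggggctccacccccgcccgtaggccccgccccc
The window of Amd1 held TATAAA from position -29, counted from the start, that of Srm held CACGTG from position -173, and that of Odc1 held none of the 3 motifs as spelled. Of the 7 members with an entry in the table, Oaz1 held both CACGTG and TATAAA. Over all 33469 promoters of that length, 5.59% held CACGTG, 1.59% TGACGTCA and 12.9% TATAAA.

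Odc1 (gene ID 24609), the entry enzyme, had the widest range of the 8, with the highest library at 3.38 times the lowest. It stood at 27.9, 45.9 and 50.9 FPKM in DN-SM replicates 1 to 3, at 36.7, 28.7 and 58.0 FPKM in DN and at 35.4, 17.2 and 25.6 FPKM in SHAM. The groups overlapped in every comparison, and SHAM replicate 2 and DN replicate 3 were the extremes. The mean was 41.6 ± 12.1 FPKM for DN-SM, 41.1 ± 15.1 for DN and 26.0 ± 9.12 for SHAM (SD, n = 3 each). The log2 fold change in DN-SM against SHAM was 0.72 (SE 0.293; 95% interval 0.06 to 1.37; unadjusted p = 0.0361, adjusted p = 0.346). In DN against SHAM it was 0.60 (interval -0.06 to 1.26; adjusted p = 0.267), and in DN-SM against DN 0.12 (interval -0.53 to 0.77; adjusted p = 0.859). With 1 library left out it ran from 0.33 (without DN replicate 3) to 0.79 (without DN replicate 2) in DN against SHAM, and from 0.52 (without SHAM replicate 2) to 0.93 (without DN-SM replicate 1) in DN-SM against SHAM. A doubling lay inside the intervals of both comparisons with SHAM.

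Amd1 (gene ID 81640), which limits the supply of aminopropyl groups, had 8.00, 10.4 and 12.0 FPKM in DN replicates 1 to 3 and 12.5, 13.9 and 12.6 FPKM in SHAM. In DN-SM the libraries stood at 12.5, 10.4 and 10.9 FPKM. All 3 DN libraries lay below all 3 SHAM libraries, also after TMM scaling, which sets libraries to each other by the bulk of their genes. The highest DN-SM library lay just under the lowest SHAM library, at 12.47 and 12.51 FPKM, and the 2 groups overlapped after TMM scaling. The mean was 10.1 ± 1.99 FPKM in DN and 13.0 ± 0.803 in SHAM (SD, n = 3 each), a log2 fold change of -0.45 (SE 0.151; 95% interval -0.78 to -0.12; unadjusted p = 0.011). The adjusted p was 0.108, and over the alternatives it ranged from 0.0819 (DESeq2) to 0.293. With 1 library left out the log2 fold change stayed between -0.55 and -0.34. In DN-SM against DN it was 0.26 (interval -0.07 to 0.59; adjusted p = 0.38) and in DN-SM against SHAM -0.19 (interval -0.51 to 0.14; adjusted p = 0.634).

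Srm (gene ID 84596), the enzyme that forms spermidine, was the one member whose FPKM did not overlap between any pair of groups. Its libraries stood at 30.3, 28.8 and 27.3 FPKM in DN-SM, at 36.8, 35.0 and 31.8 FPKM in DN and at 40.4, 36.8 and 38.2 FPKM in SHAM. The groups followed the order DN-SM, DN, SHAM from low to high, and the highest DN library lay directly under the lowest SHAM library, at 36.77 and 36.78 FPKM. DN-SM averaged 28.8 ± 1.51 FPKM and SHAM 38.5 ± 1.84 FPKM (SD, n = 3 each), a log2 fold change of -0.40 (SE 0.123; 95% interval -0.66 to -0.13; unadjusted p = 0.00697, adjusted p = 0.176). The adjusted p ranged from 0.102 (DESeq2) to 0.409 over the alternatives. In DN-SM against DN the log2 fold change was -0.17 (interval -0.44 to 0.10; adjusted p = 0.477) and in DN against SHAM, with a DN mean of 34.5 ± 2.51 FPKM, it was -0.22 (interval -0.49 to 0.04; adjusted p = 0.30). After TMM scaling only DN-SM and SHAM remained without overlap for this gene. The share of all genes without overlap in FPKM between any pair of groups was not read out.

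Sms (gene ID 363469), which forms spermine, did not separate the groups. It had 7.97, 8.71 and 10.2 FPKM in DN-SM, 6.62, 7.80 and 11.4 FPKM in DN, and 9.78, 9.37 and 6.97 FPKM in SHAM. Both the lowest and the highest library were DN. The 95% intervals of its log2 fold change ran from -0.26 to 0.58 in DN-SM against DN, from -0.36 to 0.49 in DN-SM against SHAM and from -0.52 to 0.32 in DN against SHAM.

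On the side of breakdown, Smox (gene ID 308652) was the least abundant member, with 62 to 96 expected counts per library. It had 3.49, 3.73 and 3.39 FPKM in DN-SM, 4.27, 4.24 and 3.27 FPKM in DN and 4.28, 4.64 and 4.70 FPKM in SHAM. Each DN-SM library lay below each SHAM library, and DN replicates 1 and 2 lay just under SHAM replicate 1 while DN replicate 3 lay well below. DN-SM averaged 3.54 ± 0.175 FPKM and SHAM 4.54 ± 0.227 FPKM (SD, n = 3 each), a log2 fold change of -0.34 (SE 0.192; 95% interval -0.76 to 0.07; adjusted p = 0.491). In DN, at 3.93 ± 0.569 FPKM, the log2 fold change against SHAM was -0.28 (interval -0.70 to 0.13; adjusted p = 0.413). DN-SM against DN gave -0.06 (interval -0.48 to 0.36; adjusted p = 0.893). After TMM scaling DN and SHAM overlapped for Smox, and DN-SM and SHAM did not.

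Sat1 (gene ID 302642), the acetyltransferase, had 7.86, 9.01 and 6.37 FPKM in DN-SM, 5.37, 7.63 and 7.33 FPKM in DN, and 6.82, 8.05 and 6.17 FPKM in SHAM. Its groups overlapped throughout. The log2 fold change was 0.29 in DN-SM against DN (interval -0.16 to 0.75, adjusted p = 0.475). It was 0.16 in DN-SM against SHAM (interval -0.3 to 0.62, adjusted p = 0.802) and -0.13 in DN against SHAM (interval -0.59 to 0.33, adjusted p = 0.756).

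Of the regulators, Oaz1 (gene ID 25502) had 515, 487 and 530 FPKM in DN-SM, 678, 563 and 595 FPKM in DN and 577, 580 and 593 FPKM in SHAM. The DN-SM libraries lay below all others in FPKM, and SHAM was tight, with an SD of 1.48% of its mean. After TMM scaling DN-SM overlapped with both other groups. The log2 fold change was -0.17 in DN-SM against DN (SE 0.125; 95% interval -0.44 to 0.10; adjusted p = 0.482) and -0.18 in DN-SM against SHAM (interval -0.45 to 0.10; adjusted p = 0.595). In DN against SHAM the fitted fold was 0.997, with a 95% interval from 0.827 to 1.20.

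Azin1 (gene ID 58961) varied most within SHAM. It had 6.95, 9.09 and 8.50 FPKM in DN-SM, 8.85, 4.99 and 7.93 FPKM in DN, and 8.47, 7.25 and 3.41 FPKM in SHAM. SHAM replicate 3 and DN replicate 2 were the low libraries, and the groups overlapped. Its log2 fold change was 0.26 in DN-SM against DN (interval -0.38 to 0.91; adjusted p = 0.658), 0.39 in DN-SM against SHAM (interval -0.25 to 1.04; adjusted p = 0.617) and 0.13 in DN against SHAM (interval -0.52 to 0.78; adjusted p = 0.837).

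**Figure D2:**
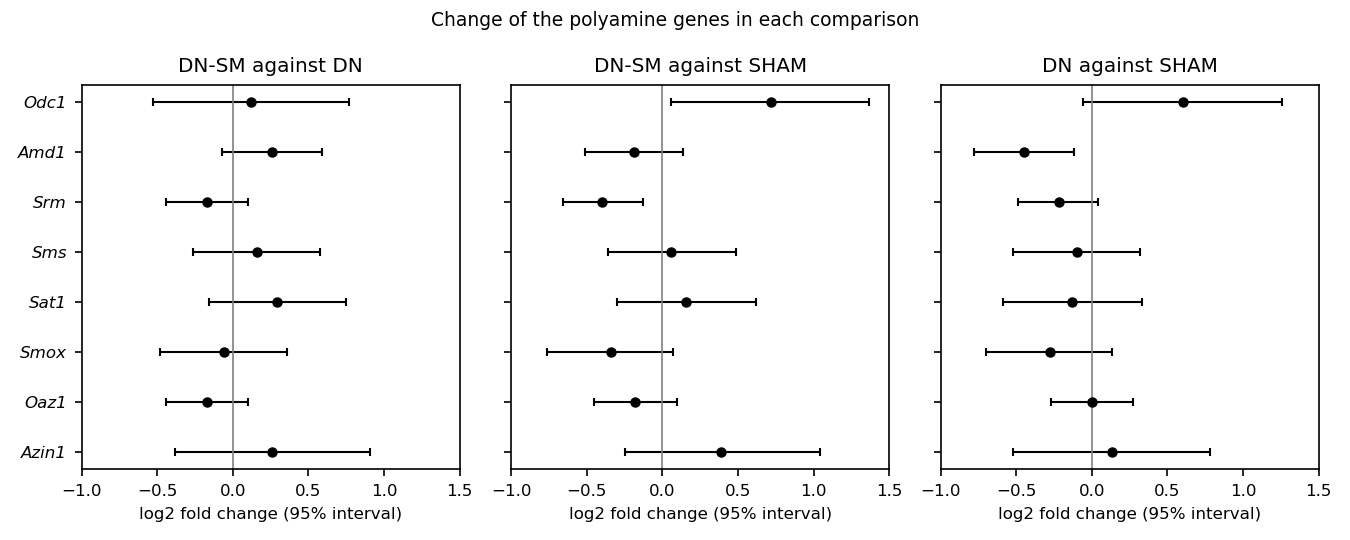
Log2 fold change of each gene (points) with its 95% interval (bars) on the horizontal axis in DN-SM against DN, DN-SM against SHAM and DN against SHAM, from the edgeR fit of all 9 libraries. The interval leaves out 0 for Odc1 and Srm in DN-SM against SHAM and for Amd1 in DN against SHAM, before any adjustment for the number of genes tested.

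Across the 8 genes the log2 fold changes went both ways. Between DN-SM and DN 5 were above 0 and 3 below, with a median of 0.14 beside -0.01 over all genes tested. In DN-SM against SHAM 4 were above and 4 below, with a median of -0.06 beside 0.02, and in DN against SHAM 2 were above and 6 below, with a median of -0.12 beside -0.01. Counting genes whose FPKM did not overlap between groups gave 2 members in DN-SM against DN (Srm and Oaz1, both lower; 21.3% of all genes were lower in this sense), 4 in DN-SM against SHAM (Amd1, Srm, Smox and Oaz1, all lower; 9.34%) and 3 in DN against SHAM (Amd1, Srm and Smox, all lower; 6.91%). After TMM scaling these counts of lower members were 0, 2 and 1, where 13.3%, 8.98% and 10.1% of all genes were lower in this sense, so most of these separations depended on the scale. The 3 comparisons share groups and are not independent of each other.

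The members were also set against each other over the 9 libraries, on log2 CPM after TMM scaling (counts scaled to library size), in 28 pairs. The permutation tests, here and for the fibre markers below, ran over all 9 libraries without regard to group. Their p-values therefore do not separate differences between groups from variation within groups. Srm and Smox went together, with a Pearson r of 0.88 (exact permutation p = 0.00116, adjusted over the pairs 0.0326) and a Spearman rho of 0.93 (exact permutation p = 0.00075, adjusted 0.021). The r was 0.85 without DN replicate 3 and DN-SM replicate 3, the 2 libraries farthest from the median of Srm, and 0.88 between deviations from the group means. Among the other 10128 genes tested 0.701% had an r with Srm at least as high, and 0.405% had one as high with Smox. Odc1 had an r of -0.82 with Srm (exact permutation p = 0.00914, adjusted 0.0874) and of -0.81 with Smox (exact permutation p = 0.00937, adjusted 0.0874), neither past the threshold after adjustment. Odc1 and Azin1, which resemble each other as proteins, had an r of 0.41 (exact permutation p = 0.269, adjusted 0.47), and Odc1 and Oaz1 one of -0.45 (exact permutation p = 0.226, adjusted 0.47). Without SHAM replicate 2 and DN replicate 3, farthest from the median of Odc1, its r was -0.73 with Srm and -0.58 with Smox. It was then 0.76 with Azin1 and -0.26 with Oaz1. Between deviations from the group means these were, in the same order, -0.71, -0.66, 0.23 and -0.33. Srm and Oaz1 had an r of 0.70 (exact permutation p = 0.0391, adjusted 0.274).

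Each member was also set against the summed fibre markers. Odc1 had a Pearson r of 0.66 and a Spearman rho of 0.72 with the summed slow-fibre markers over the 9 libraries (exact permutation p = 0.0505 and 0.0369; adjusted over 16 relations 0.196 and 0.355). Without SHAM replicate 2 and DN-SM replicate 1, the 2 libraries farthest from the median of the slow-fibre sum, the r was 0.23. Leaving them out also narrows the range of that sum. Between deviations from the group means the r was 0.76. Sat1 had an r of -0.76 and a rho of -0.57 with the same markers (exact permutation p = 0.0184 and 0.121, adjusted 0.196 and 0.355). Its r was -0.63 without those 2 libraries and -0.78 between deviations from the group means. Amd1 had an r of -0.69 and a rho of -0.60 (exact permutation p = 0.0379 and 0.0968, adjusted 0.196 and 0.355). Its r was -0.30 without those libraries and -0.46 between deviations. With the summed fast-fibre markers the r was -0.60 for Odc1, 0.64 for Amd1 and 0.68 for Sat1 (exact permutation p = 0.0906, 0.0612 and 0.045, adjusted 0.212, 0.196 and 0.196). Without SHAM replicate 2 and DN replicate 3 these were -0.0, 0.54 and 0.67, and between deviations from the group means -0.84, 0.45 and 0.59. None of the 16 relations passed after adjustment, and the part of fibre makeup in the values of the 8 genes was not tested.

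**Figure D3:**
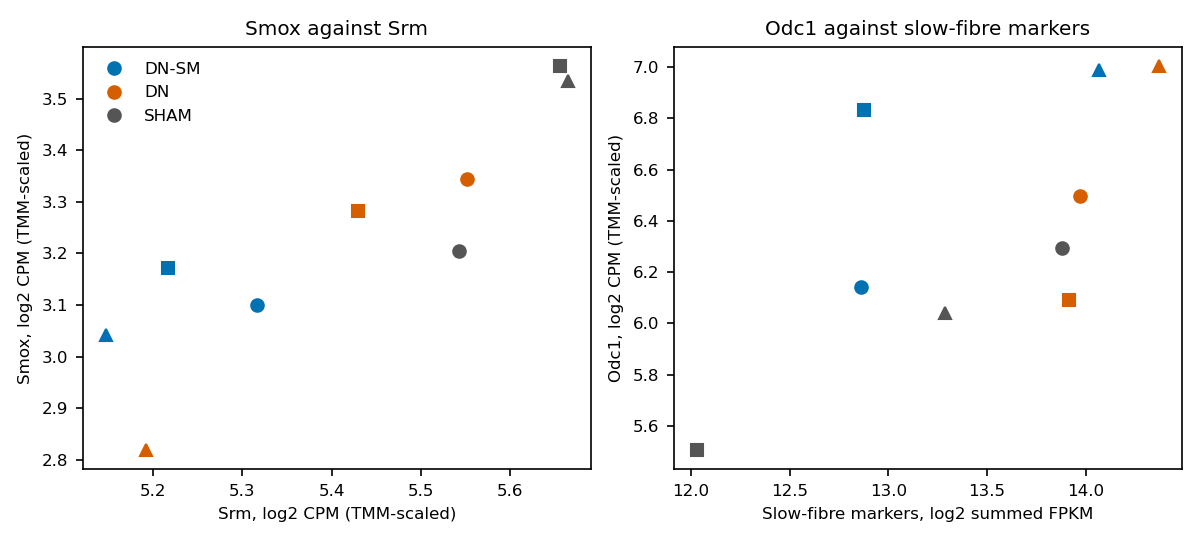
Left, Smox against Srm, both as log2 CPM after TMM scaling; right, Odc1 (log2 CPM) against the summed slow-fibre markers (log2 of summed FPKM). Each point is a library, coloured by group, with circles, squares and triangles for replicates 1, 2 and 3; Smox and Srm lie along 1 rising line (r = 0.88), and SHAM replicate 2 is lowest on both axes of the right panel.

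By the rule for likeness, which fell to Amd1 and Smox because no member passed the test, the 3 genes with the most similar pattern were sought among 5396 genes with a mean of at least 5 FPKM. For Amd1 they were Pex13, a protein of peroxisome import (r = 0.925 over 9 libraries), Cacul1, a cullin-related protein (0.911), and Ei24, a protein of the endoplasmic reticulum (0.91). Pex13 averaged 10.1 ± 0.791 FPKM in DN-SM, 9.18 ± 2.04 in DN and 11.4 ± 1.33 in SHAM (SD, n = 3 each). For Smox they were Smarcd3, a chromatin remodelling subunit of muscle and heart (r = 0.955), Pde4a, a cAMP phosphodiesterase (0.949), and Zbtb7b, a zinc finger transcription factor (0.947). Smarcd3 averaged 134 ± 9.31 FPKM in DN-SM, 145 ± 18.9 in DN and 168 ± 7.39 in SHAM. An r of at least 0.8 was reached by 126 of the 5396 genes with Amd1 and by 150 with Smox, and these values are descriptions, since the genes were picked by them.

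The wider pathway was followed in 5 lists with 38 genes, of which 35 were listed in a library and 25 had enough counts to be tested. None of the 25 passed in any comparison, with 0 higher and 0 lower in DN-SM against DN, DN-SM against SHAM and DN against SHAM. Of all genes tested, 0.00987%, 0.839% and 4.26% passed in these comparisons. At an unadjusted p under 0.05 there were 3, 4 and 3 of the 25, where 17.6%, 12.8% and 22.3% of all genes lay. The medians of the 25 were -0.11, -0.08 and -0.01 on the log2 scale, beside -0.01, 0.02 and -0.01 over all genes tested. DESeq2 and other fits called 1 of the genes named below in each of 2 comparisons.

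Among genes of arginine and ornithine supply (4 of 7 tested), the smallest p in each comparison was that of Oat, the mitochondrial ornithine aminotransferase, which links ornithine to glutamate and proline. Oat had 41.4, 41.4 and 39.4 FPKM in DN-SM, 24.5, 32.5 and 31.9 FPKM in DN, and 32.3, 37.3 and 32.8 FPKM in SHAM. All DN-SM libraries lay above all others in FPKM, and the share of all genes that lay higher in this way was not read out. In DN-SM against SHAM the log2 fold change of Oat was 0.27 (95% interval -0.02 to 0.55, adjusted p = 0.428). The log2 fold change in DN-SM against DN was 0.56 (SE 0.133; 95% interval 0.27 to 0.85; unadjusted p = 0.00114, adjusted p = 0.144). Its adjusted p over the alternatives ran from 0.0118 to 0.364, and it passed in the fit of DN-SM and DN alone (0.0118), by DESeq2 (0.0306), by voom with sample weights (0.0271), without SHAM replicate 2 (0.0246) or SHAM replicate 3 (0.0374), and in the fit of DN-SM and DN alone with the length trend removed (0.0152). Aldh18a1, which makes the precursor of proline and ornithine from glutamate, went the other way, at 1.53, 1.69 and 0.79 FPKM in DN-SM, 2.05, 2.65 and 2.51 FPKM in DN and 2.09, 1.28 and 1.61 FPKM in SHAM. Its DN-SM libraries lay below all DN libraries, as did those of 21.3% of all genes in FPKM, and overlapped with SHAM. The log2 fold change in DN-SM against DN was -0.74 (SE 0.263; 95% interval -1.31 to -0.17; unadjusted p = 0.0149, adjusted p = 0.199, and 0.0684 to 0.38 over the alternatives). The tested members Ass1 and Asl had levels of at most 6.55 FPKM, and Arg1, Arg2 and Otc were too low to be tested.

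Among transporters of polyamines and their precursors (5 of 11 tested), Slc3a2, the heavy chain of several amino acid exchangers, had 36.1, 34.5 and 39.8 FPKM in DN-SM, 46.7, 40.7 and 42.1 FPKM in DN and 52.5, 54.6 and 52.0 FPKM in SHAM. Its groups did not overlap in FPKM, in the order DN-SM, DN, SHAM from low to high, as for Srm. Of all genes, 21.3% were lower in this sense in DN-SM against DN, 9.34% in DN-SM against SHAM and 6.91% in DN against SHAM. Overlap after TMM scaling was not read out for Slc3a2. In DN-SM against SHAM the log2 fold change was -0.50 (SE 0.121; 95% interval -0.76 to -0.24; unadjusted p = 0.00124, adjusted p = 0.0881), with a range over the alternatives from 0.016 by DESeq2, the one fit in which it passed, to 0.264. In DN against SHAM it was -0.37 (adjusted p = 0.102), and in DN-SM against DN -0.14 (95% interval -0.4 to 0.13, adjusted p = 0.574). Atp13a2, a lysosomal polyamine exporter, stood without overlap at 8.38 ± 0.846 FPKM in DN-SM, against 10.4 ± 0.332 FPKM in SHAM (mean ± SD of 3 libraries each), a log2 fold change of -0.30 (95% interval -0.59 to -0.01; unadjusted p = 0.0458, adjusted p = 0.379). In DN-SM against DN the smallest p among transporters was that of Slc22a3, an organic cation transporter, at 0.393 and 0.63 FPKM in DN-SM and DN (log2 fold change -0.58, adjusted p = 0.384).

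Spermidine is also the substrate for hypusine, a modified lysine of the translation factor eIF5A made by Dhps and Dohh, and all 4 genes of that list were tested. Dohh had the smallest p against SHAM, at 18.5 ± 0.571 FPKM in DN-SM, 21.3 ± 0.972 in DN and 25.3 ± 3.69 in SHAM (SD, n = 3 each). Its log2 fold change was -0.43 in DN-SM against SHAM (adjusted p = 0.147) and -0.32 in DN against SHAM (adjusted p = 0.156). Eif5a itself stood at a mean of 361 FPKM in DN-SM, 406 in DN and 386 in SHAM, with log2 fold changes between -0.08 and -0.01. Its paralogue Eif5a2 had the smallest p of the list in DN-SM against DN, but at 0.313 and 0.157 FPKM it was among the lowest of the tested genes of these lists (log2 fold change 1.07, adjusted p = 0.221).

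In the methionine cycle and salvage list (8 of 9 tested), which makes the substrate of Amd1 and recovers the methylthioadenosine that Srm and Sms release, Mat2a, a methionine adenosyltransferase, had a mean of 16.6 FPKM in DN-SM, 18.1 in DN and 14.1 in SHAM. Its log2 fold change was 0.26 in DN-SM against SHAM (adjusted p = 0.461) and 0.29 in DN against SHAM (adjusted p = 0.242). Enoph1, an enzyme of methionine salvage, had the smallest p of the list in DN-SM against DN (-0.21, adjusted p = 0.542). Of the other enzymes and regulators (4 of 7 tested), Oaz2, a second antizyme, was the most abundant at a mean of 208 FPKM in DN-SM, 227 in DN and 200.3 in SHAM (DN against SHAM 0.10, adjusted p = 0.696). Azin2, a second antizyme inhibitor, had 1.35 FPKM in DN-SM, 0.937 in DN and 1.02 in SHAM, with log2 fold changes of 0.63 in DN-SM against DN (adjusted p = 0.357) and 0.47 in DN-SM against SHAM (adjusted p = 0.612).

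**Figure D4:**
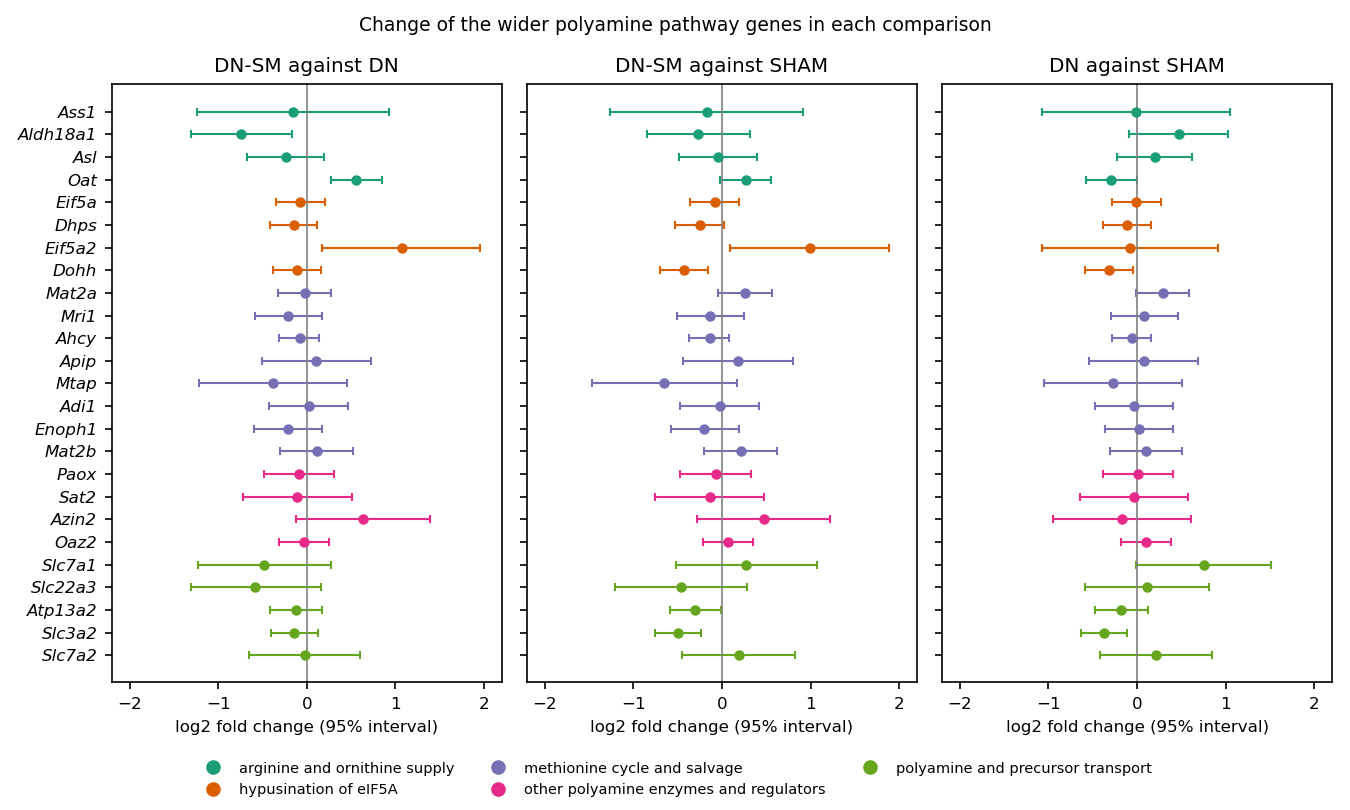
Log2 fold change (points) with its 95% interval (bars) on the horizontal axis for the 25 tested genes of the wider pathway, coloured by list, in DN-SM against DN, DN-SM against SHAM and DN against SHAM. Before adjustment, the interval leaves out 0 for Oat (0.56), Aldh18a1 and Eif5a2 in DN-SM against DN. It also does so for Slc3a2 (-0.50), Dohh, Eif5a2 and Atp13a2 in DN-SM against SHAM, and for Oat, Slc3a2 and Dohh in DN against SHAM. None of these passed the adjusted threshold in the fit of all 9 libraries.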

How the data were processed

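Messenger RNA of gastrocnemius muscle was sequenced on a BGISEQ-500 from 1 µg of RNA per library, per the labels' protocols. The deposited expected count per gene is, per the file headers, the estimate RSEM writes, not normalized. The FPKM values were scaled by the authors to transcript length and library size, per the file headers. The transcript length in bases per gene is deposited beside them. GATK, HISAT2, RSEM and the genome build rn6 are named in the submitters' processing notes; versions and settings are not given in the sources used here. Genes at 0 are not listed in a file and were set to 0. Symbols came from RefSeq (13649 identifiers matched by gene ID, 7 by accession, 96 had none).

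Expected counts were rounded and tested with edgeR 4.0.16 in R 4.3.3 (quasi-likelihood F test, robust, two-sided, TMM factors) after filterByExpr (count of at least 10, total of at least 15), all 9 libraries in 1 fit with group as the only term. Standard errors were derived from the F statistic and 95% intervals from its degrees of freedom. FPKM are means ± SD. The fit was tested on simulated data. Named outside the 8 genes were the member of each pathway list with the smallest p and the 3 genes most correlated with Amd1 and Smox (log2 CPM, prior count 2). Aldh18a1 and Atp13a2 were added after their values were seen. Other genes of these lists, such as Eif5a, Ass1 and Asl, were named outside this rule. Genes and lists were chosen with earlier results of these data known.

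Alternatives were RLE factors, DESeq2 1.42.0, no filter, the 2 groups compared alone, the replicate number as a block, limma 3.58.1 with trend on log2(FPKM + 1) or log2(FPKM + 0.1), with a filter at 1 FPKM in 3 libraries or none, voom with weights per sample, totals computed after dropping the 20 top genes, and each library left out. A loess correction for transcript length (span 0.5) was added after the data were seen.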

Additional observations from a re-analysis of the deposited data

How the results depend on the processing

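Over 21 alternatives for each of the 24 results on the 8 genes, 0 passed the threshold, with a lowest adjusted p of 0.0819. Reversals, all of results with no call, were in DN against SHAM Sms at 0.01 and 0.03 without SHAM replicate 2 and DN replicate 1 (lowest -0.30, without DN replicate 3), Sat1 at 0.02 without SHAM replicate 2 (lowest -0.24), Azin1 at -0.06 by voom, -0.16 without SHAM replicate 3 and -0.09 without DN replicate 1 (highest 0.33), and Oaz1 at 0.07 by each limma fit on FPKM, 0.02 by voom, and 0.03, 0.03, 0.05 and 0.06 without SHAM replicates 2 and 3 and DN replicates 2 and 3 (lowest -0.13). In DN-SM against DN, Odc1 was at -0.07 and -0.05 without DN replicate 2 and DN-SM replicate 3 (highest 0.39), and Smox at 0.04 and 0.0 without DN replicates 1 and 2 (lowest -0.21); in DN-SM against SHAM, Sms was at -0.05 and -0.04 without SHAM replicate 3 and DN-SM replicate 3 (highest 0.17). Oaz2 in DN against SHAM was at -0.02 without SHAM replicate 1 (highest 0.19 with a library left out, and 0.2 by voom). On log2(FPKM + 0.1) the median of all genes in DN-SM against DN was -0.11.

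The number of genes called over the whole table depended on the fit, and the cause was not tested. In DN against SHAM it was 432, with 758 by DESeq2, 156 for the 2 groups alone (179 with the length trend removed), 275, 243 and 112 by limma with pseudocounts 1 and 0.1 and without a filter, and 58 (without DN replicate 3) to 1183 (without SHAM replicate 3) with a library left out. In DN-SM against DN it was 1 (1784 at an unadjusted p under 0.05), with 215 by DESeq2, 716 for the 2 groups alone (674 with the length trend removed), 515 by voom, 0 by limma with a pseudocount of 0.1, and 0 to 416 (without SHAM replicate 3) with a library left out. In DN-SM against SHAM it was 85, with 259 by DESeq2, 28 for the 2 groups alone (25 with the length trend removed), 42, 43 and 12 by limma, and 15 (without DN-SM replicate 1) to 137 (without SHAM replicate 2) with a library left out.

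With the replicate block 39 genes were called in DN-SM against SHAM and 317 in DN against SHAM, and 0 of the 8 genes. Same-numbered libraries did not deviate together (correlations from -0.05 to 0.11, with 3 of 9 libraries correlating best with their own number). No pairing by number was visible in these values, and whether the numbers mark a shared day or batch was not tested. In DN-SM against SHAM the SE was 0.192 for Smox, at 62 to 96 counts per library, and 0.293 for Odc1, at 363 to 1202; the part of depth in these errors was not tested.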
